A study of Mus musculus with 4 samples.

Results

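The transcripts of 10 genes that mark or control epithelial and mesenchymal identity were compared between fetal and adult mouse intestinal organoids. They are the cadherins Cdh1 and Cdh2, the filament gene Vim, the transcriptional repressors Zeb1, Zeb2, Snai1, Snai2 and Twist1, and the epithelial factors Ovol1 and Grhl2. The set is defined by gene name, and all 10 were found by symbol among the 55416 gene identifiers of the deposited tables. Organoids are epithelial cultures in a gel that renew themselves from their own stem or progenitor cells. The adult group (n = 2 libraries) came from small intestinal epithelium of C57BL/6 mice aged 4 to 8 weeks and the fetal group (n = 2 libraries) from that of C57BL/6 embryos at stage E15.5. Both groups were kept in the same commercial medium, and no genetic change or treatment is named for either. The labels do not say whether the libraries of a group came from separate animals or cultures, so every p-value here rests on library-to-library spread alone, and that spread may be technical.

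Epithelial cells are held together by E-cadherin, the product of Cdh1, which binds its like on the next cell and is tied to the actin cytoskeleton through catenins. In epithelial-mesenchymal transition (EMT), a programme of embryonic development and of carcinoma, repressors of the SNAIL, ZEB and TWIST families shut down Cdh1 by binding E-box sequences, while N-cadherin (Cdh2) and vimentin (Vim) rise. OVOL and Grainyhead-like factors act against this programme, and the exchange of E-cadherin for N-cadherin is called a cadherin switch.

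E-cadherin transcripts did not give way to N-cadherin transcripts here, so the set is described by its genes and not as a switch. Cdh1 was abundant in every library and higher in the fetal ones, Cdh2 stayed at trace level in both groups, and Zeb1, Zeb2, Snai1 and Twist1 were at 0 to 6 counts per library. Vim rose in fetal organoids from a low level, while Snai2 and Ovol1 fell. Of the 10 genes, 6 held enough counts to be tested; 3 were called higher (Cdh1, Cdh2 and Vim) and 2 lower (Snai2 and Ovol1), and Grhl2 was not called (p under 0.05 after Benjamini-Hochberg adjustment over all genes tested, from edgeR's quasi-likelihood test). Over all 14271 genes tested, 66.5% were called, 33.9% higher and 32.7% lower, so the members' count of calls is not a result about them, and the sizes and levels below are what the data add. Of the 6 tested, Cdh2 reached the filter on low counts only in the fetal libraries and Snai2 only in the adult ones. Each of these 2 was thus tested only through the group in which it was higher. With library totals in place of TMM scaling 4 of the 6 were higher and 2 lower, where 69.7% of all genes were called (48.8% higher, 20.9% lower). On log2(TPM + 1) with limma 3 were higher and 2 lower, where 57.2% of 15890 genes were called (45.2% higher, 12.0% lower).

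The libraries held 10862147 to 13061585 estimated counts each. Mitochondrial transcripts took 17.5% and 17.6% of the adult counts and 6.98% and 7.82% of the fetal counts, and fold changes depended on the scaling. Over all genes the median difference, fetal minus adult on the log2 scale, was 0.01 under TMM scaling, 0.25 under library totals and 0.34 on log2(TPM + 1). The split of calls over all genes moved with it, from 4833 higher against 4662 lower to 6971 against 2976 and 7179 against 1914. Levels are given below as TPM (a transcript level corrected for gene length and scaled to a common total) where genes are set against each other and as CPM (counts relative to the TMM-scaled library total) otherwise; fold changes come from the counts, fetal over adult.

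**Figure D1:**
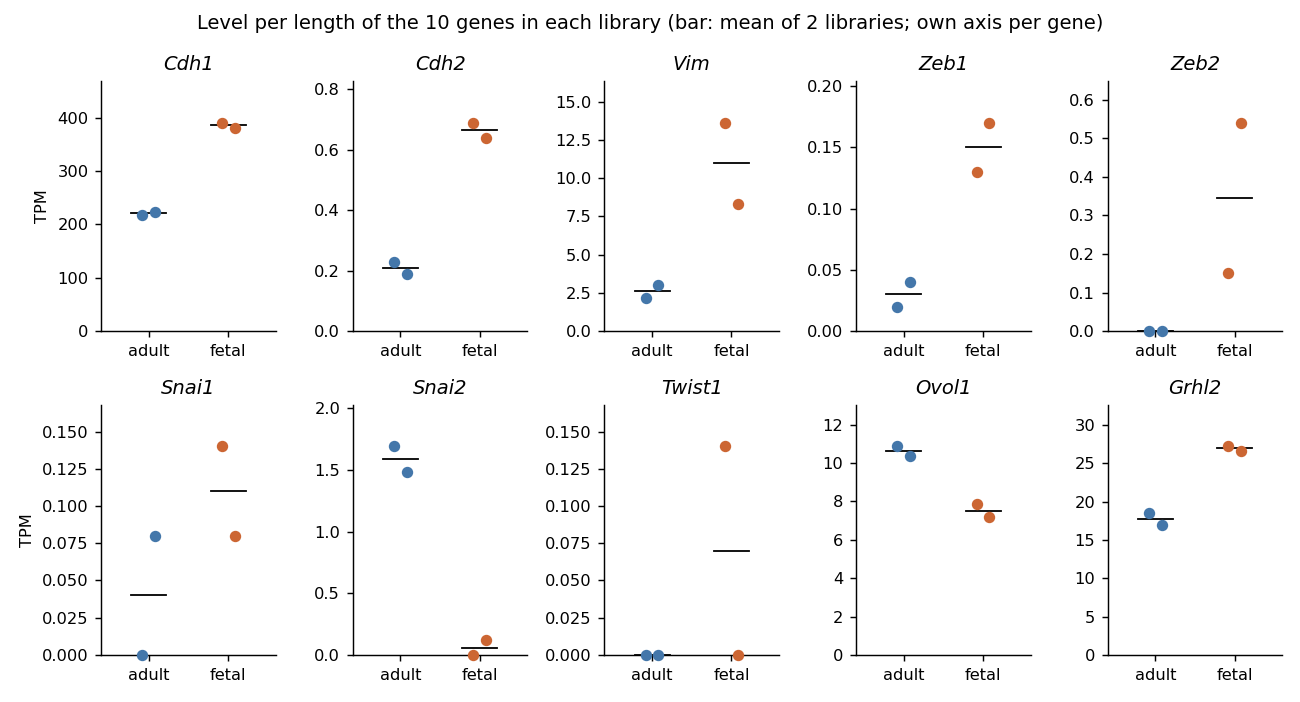
TPM of the 10 genes in each of the 4 libraries (points), with the mean of 2 libraries as a bar; each gene has its own axis, starting at 0. Cdh1 lies between 218 and 390 TPM, while Cdh2, Zeb1, Zeb2, Snai1 and Twist1 all stay below 1 TPM.

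Cdh1 stood at 218 and 223 TPM in adult against 390 and 381 TPM in fetal libraries. Both fetal libraries lay above both adult ones. In counts scaled with TMM it rose from 797 ± 15.2 to 1066 ± 2.05 CPM (SD, n = 2). The log2 fold change was 0.42 with an SE of 0.03 (edgeR with Benjamini-Hochberg, adjusted p = 2.24e-07). The log2 difference was 0.67 under library totals and 0.80 on log2(TPM + 1), with a call under each. Relative to the median of all genes it was 0.41 under both TMM and library totals, and 0.47 on log2(TPM + 1). Library totals shift all genes by nearly the same amount, so the match between the first 2 follows from the arithmetic and is no separate result.

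Cdh2, which encodes the cadherin of neural and mesenchymal cells, had 9 and 6 counts in adult against 23 and 20 in fetal libraries. That is 0.23 and 0.19 TPM against 0.69 and 0.64 TPM, and the groups did not overlap. The log2 fold change was 1.15 with an SE of 0.41 (edgeR with Benjamini-Hochberg, adjusted p = 0.0269). This call was lost with DESeq2 (adjusted p = 0.234), on filtered log2(TPM + 1) with limma (adjusted p = 0.0534), and whenever any 1 of the 4 libraries was left out (edgeR adjusted p = 0.0945 to 0.188). In bulk libraries such as these, fewer cells of a type and less RNA per cell cannot be told apart. At its fetal level Cdh2 remained far below Cdh1. Cdh1 held 949 and 1174 times the TPM of Cdh2 in adult against 566 and 596 times in fetal libraries.

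Set against the other classical and related cadherins, the larger shift in share was between Cdh1 and Cdh17, the liver-intestine cadherin of the enterocyte's lateral membrane. Cdh17 fell from 701 ± 14.2 to 440.1 ± 0.731 CPM (SD, n = 2), a log2 fold change of -0.67 with an SE of 0.03 (edgeR with Benjamini-Hochberg, adjusted p = 1.27e-09). Of the summed TPM of 12 cadherins, Cdh1 took 46.1% and 47.6% in adult and 63.3% and 64.0% in fetal organoids, and Cdh17 took 53.7% and 52.3% in adult and 33.7% and 33.9% in fetal. Cdh17 was thus the leading cadherin of the adult libraries and Cdh1 that of the fetal libraries. Cdh2 made up 0.0486% and 0.0406% of this sum in adult and 0.112% and 0.107% in fetal.

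**Figure D2:**
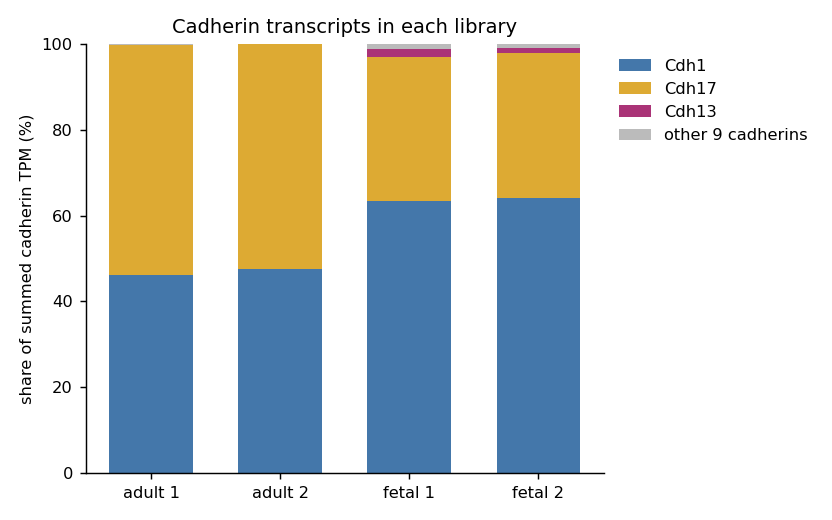
Share of the summed TPM of 12 cadherins in each library, stacked to 100%. Cdh1 grows from 46.1% and 47.6% in adult to 63.3% and 64.0% in fetal libraries as Cdh17 shrinks, and Cdh13 shows as a thin band in the fetal bars only.

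Of the 10 other cadherins, 4 were tested. Of these, 3 were called higher and 1, Cdh17, lower, where 33.9% of all genes tested were higher and 32.7% lower. The 3 that were higher reached the filter in fetal libraries only. Cdh13, the cadherin that is anchored by a lipid tail and lacks a cytoplasmic part, had 3 and 1 counts in adult and 267 and 214 in fetal libraries. It stood at 17.4 ± 1.67 CPM (SD, n = 2) in fetal against 0.181 ± 0.115 CPM in adult organoids. Cdh3, the P-cadherin of basal epithelial cells and placenta, had 2 counts in each adult library against 104 and 72 in the fetal ones, and rose from 0.188 to 6.36 CPM. Cdh16, the kidney cadherin, had 3 and 0 counts against 32 and 36 (ratio 17.6, exact 95% counting interval 5.79 to 87.7). Its call was lost with limma on log2(TPM + 0.1) (adjusted p = 0.0537) and on unfiltered log2(TPM + 1) (adjusted p = 0.0601), which left 2 other cadherins higher. Its fitted log2 fold change of 4.05 became 7.96 without adult replicate 1, the only adult library with Cdh16 counts, and 3.19 without adult replicate 2. Cdh5, the endothelial cadherin, and Cdh8 had 0 counts in all 4 libraries, and Cdh11, the cadherin of mesenchymal cells, was not tested at 3.03 and 6 against 10.02 and 25.05 estimated counts. Of the cadherins below 1 TPM in adult organoids, Cdh13 (11.0 and 6.96 TPM), Cdh3 (2.69 and 1.97 TPM) and Cdh16 (3.02 and 1.62 TPM) reached a higher level per length than Cdh2 in both fetal libraries. Cdh11 stood at 0.42 and 1.13 TPM there, on either side of Cdh2.

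The partners that tie E-cadherin to the cytoskeleton were higher with it. Of 11 catenins and junction partners 10 were tested, and 8 were called higher and 2 lower (median log2 fold change 0.49, against 0.01 for all genes). The counts were 8 and 1 under library totals as well as on log2(TPM + 1). Ctnnb1, Ctnna1 and Ctnnd1, the catenins beta, alpha and p120, rose by 0.37, 0.61 and 0.66 on the log2 scale. Vcl, vinculin, which reinforces junctions under tension, rose from 102 ± 2.62 to 200.1 ± 3.80 CPM (SD, n = 2). Ctnnd2, a relative of p120 best known from neurons, had 0 counts in adult and 45 and 41 in fetal libraries, at least 11.1-fold higher against a floor of 3 counts per library. Nectins, the immunoglobulin-type adhesion proteins beside cadherins, went both ways. Nectin2 rose from 36.1 to 101.7 CPM and Nectin3 fell from 170 to 87.0 CPM, while the fall of Nectin1 (log2 fold change -0.36) turned to 0.26 without a call on log2(TPM + 1).

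Vim, the intermediate filament of mesenchymal cells, had 37 and 28 counts in adult against 145 and 95 in fetal libraries. That is 3.24 and 2.81 CPM against 10.1 and 7.22 CPM. The groups did not overlap, and the fetal libraries differed between themselves by more than the adult ones. The log2 fold change was 1.52 with an SE of 0.23 (edgeR with Benjamini-Hochberg, adjusted p = 8.76e-05), and 1.25 to 1.72 with single libraries left out. Per length, Vim stayed far under the keratin of simple epithelia, Krt8, whose TPM was 305 and 211 times that of Vim in adult libraries and 125 and 198 times in fetal ones. Krt8 rose as well, from 1016 to 2005 CPM.

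Matrix and filament genes that EMT is known to raise were mostly far higher in fetal organoids. Of 18 mesenchymal effector genes, 17 were tested. Of these, 15 were called higher and 1 lower, where 33.9% of all genes tested were higher and 32.7% lower. But 14 of the 17 reached the filter in fetal libraries only. Their median log2 fold change came to 6.63 from the fit, and to 5.11 with the 6 genes at 0 in adult libraries set at their lower bound. Col3a1, a fibrillar collagen, had 0 counts in adult and 365 and 347 in fetal libraries, at least 92.0-fold higher, and Col1a2 was at least 34.6-fold and Tnc, tenascin C, at least 30.9-fold higher. Nes, the filament nestin, which assembles with vimentin, had 2 counts in each adult library against 746 and 653 in the fetal libraries. At 13.9 and 12.9 TPM it stood beside Vim (13.6 and 8.32 TPM) in fetal organoids; Nes was chosen after its values were seen. L1cam, a neural adhesion protein, fell from 41.9 to 20.2 CPM, and Tagln, a smooth muscle protein, was not called at 15.7 and 9.23 against 18.2 and 9.71 counts.

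**Figure D3:**
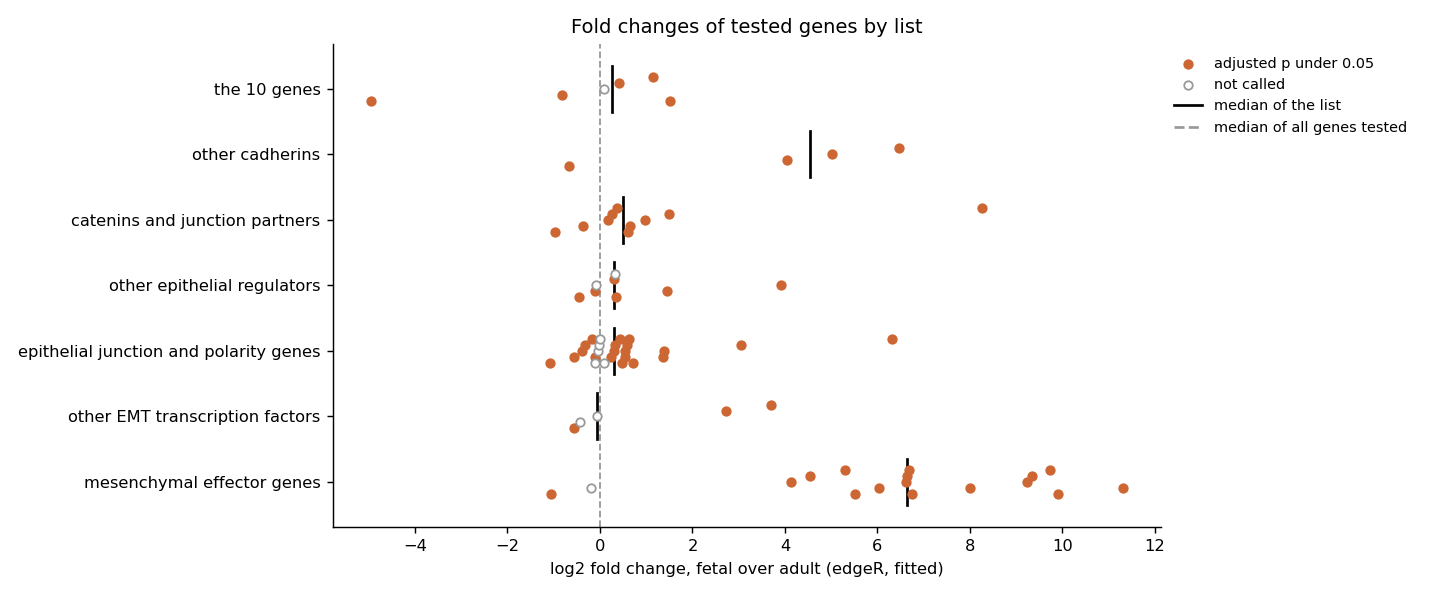
Fitted log2 fold changes, fetal over adult, of the tested genes in each list; filled points have an adjusted p under 0.05, black bars are list medians and the dashed line is the median of all genes tested (0.01). The junction lists centre at 0.30 to 0.49. The mesenchymal effector median is 6.63, or 5.11 with genes at 0 in adult libraries at their bound, and 14 of its 17 genes reached the filter only in fetal libraries, so the medians are not compared.

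The labelled cell type was checked against markers. All 8 intestinal epithelium markers had counts in every library, with a summed level of 3688 and 3733 CPM in adult and 6624 and 6636 CPM in fetal organoids. The keratins Krt8, Krt18 and Krt19 and the galectin Lgals4 carried this sum and were called higher. Cdx1, an intestinal transcription factor, and Cdhr5, a brush border protocadherin, fell by 1.55 and 1.32 on the log2 scale. Vil1, the brush border protein villin, was called lower with TMM (log2 fold change -0.15) but had the higher mean TPM in fetal organoids (219 against 187.5), and Cdx2 was not called. Markers of cells that express Vim, Cdh2, Zeb2 and collagens were far lower and partly moved with the groups. The 8 fibroblast markers summed to 1.49 and 2.31 CPM in adult and 15.9 and 15.4 CPM in fetal libraries, with counts for 1 and 2 of 8 and for 6 and 5 of 8. Without Col6a3, itself a collagen (0 counts in adult, 151 and 123 in fetal), the sums were 1.49 and 2.31 against 5.37 and 6.08 CPM. Dcn, a matrix proteoglycan, had 0 counts in adult and 27 and 24 in fetal libraries, and Pdgfra had 0 and 3 against 18 and 20. Pdgfrb, which carried most of the adult sums at 1.49 and 2.00 CPM, did not share this direction. It had 17 and 20 counts in adult against 15 and 28 in fetal libraries (edgeR with Benjamini-Hochberg, log2 fold change -0.14, adjusted p = 0.779). Dpt and Mfap5 were at 0 in all 4 libraries. The part of such cells in the higher Vim, Cdh2, Zeb2 and matrix genes was not tested.

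Of the other lineages, most sums were higher in fetal libraries and the neuron and glia sum was lower, but genes of the same list often differed in direction. The 6 smooth muscle markers summed to 1.22 and 0.802 CPM in adult and 4.25 and 4.33 CPM in fetal libraries, led by Synm, a filament protein. The 6 endothelial markers summed to 2.13 and 3.71 against 4.46 and 3.79 CPM, led by Egfl7. The other endothelial markers did not share this direction: Pecam1 had 5.31 and 5.03 counts in adult against 0 and 2 in fetal libraries, Tek had 2 and 4 against 2 and 2, Kdr had 1 count in 1 fetal library, and Tie1 and Emcn were at 0 throughout. The 8 immune markers summed to 4.61 and 4.05 against 7.81 and 7.91 CPM, led in fetal libraries by the lysosomal gene Cd68, which was called higher. Itgam, an integrin of myeloid cells and the only other immune marker tested, was called lower, at 28 and 15 counts in adult against 3 and 1 in fetal libraries. The pan-leukocyte gene Ptprc had 1 and 0 counts in adult and 0 in both fetal libraries. The 7 neuron and glia markers were lower in fetal libraries, at 1.46 and 1.75 CPM against 2.89 and 2.71 CPM. Of the 4 mesothelium markers, Msln stood at 29.0 and 29.9 against 437.4 and 431.1 CPM, while the other 3 summed to 3.50 and 3.11 against 0.279 and 0.760 CPM.

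**Figure D4:**
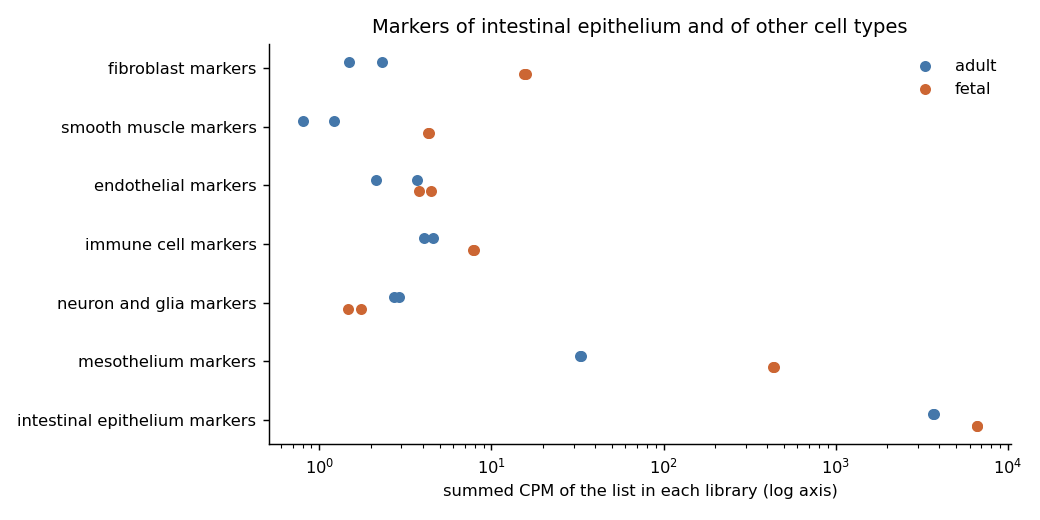
Summed CPM of each marker list in each library, on a log axis; blue is adult, orange is fetal. The epithelial list lies at 3688 to 6636 CPM, and the fibroblast list rises from 1.49 and 2.31 to 15.9 and 15.4 CPM.

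Snai2, also called Slug, a repressor of the SNAIL family, was lower in fetal organoids. It had 31 and 24 counts in adult against 0 and 2 in fetal libraries, or 2.71 and 2.41 CPM against 0 and 0.152 CPM. The groups did not overlap, and adult organoids held 35.3 times the fetal level (ratio of summed counts scaled for depth, exact 95% counting interval 9.32 to 299). The fitted log2 fold change was -4.95 with an SE of 0.65 (edgeR with Benjamini-Hochberg, adjusted p = 2.47e-05). It ranged from -7.94 without fetal replicate 2, the only fetal library with Snai2 counts, to -3.98 without fetal replicate 1.

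Zeb1, Zeb2, Snai1 and Twist1 lay too low to be tested. Zeb2 had 0 counts in both adult libraries and 6 in each fetal library, which is at least 1.55-fold higher in fetal organoids against the floor of 3 counts per library. Without the filter on low counts edgeR called Zeb2 higher (fitted log2 fold change 5.45, which depends on the prior count, Benjamini-Hochberg adjusted p = 0.0117), while DESeq2 (0.0888) and limma on unfiltered log2(TPM + 1) (0.167) did not. Zeb1 had 1 and 1 counts in adult and 1 and 3 in fetal libraries, Snai1 had 0 and 1 against 2 and 1, and Twist1 had 0 and 0 against 2 and 0. All values of Zeb1, Snai1 and Twist1 were at or under the floor, so no fold is given and a difference was not detectable at this depth. The floor of 3 counts corresponds to 0.209 to 0.301 CPM.

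The E-box bound by SNAIL and ZEB proteins is shown here in the promoters of genes on both sides of this circuit. The letters CACCTG were searched on both strands (CAGGTG on the other) in the 250 bases before each start in RefSeq's promoter table of GRCm38.p6. Of the 10 genes, 4 had an entry there: Vim, Zeb2, Snai1 and Twist1. The motif was found for Snai1 only, and for the other 3 its letters are not in this window. Over all 27025 genes listed there, 19.4% held it (17.2% of 32851 windows). Of the epithelial junction and polarity genes described below, 18 of 25 had an entry and 12 of these held the motif; of the mesenchymal effector genes, 14 of 18 had an entry and 0 held it. The stretches printed were picked, after the values were seen, to show a member and 4 epithelial genes that rose, and each runs 5′ to 3′ on the gene's strand with the E-box in capitals. They lie at chr2:167538029-167538114 (plus strand) for Snai1, chr5:134946935-134946988 (minus) for Cldn4, chr4:135573633-135573691 (minus) for Grhl3, chr3:88548287-88548383 (minus) for Rab25 and chr17:57062043-57062200 (plus) for Crb3.
Snai1: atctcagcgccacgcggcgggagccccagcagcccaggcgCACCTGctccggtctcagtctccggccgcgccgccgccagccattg
Cldn4: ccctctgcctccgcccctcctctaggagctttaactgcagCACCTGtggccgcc
Grhl3: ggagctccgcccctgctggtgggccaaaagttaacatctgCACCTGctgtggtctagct
Rab25: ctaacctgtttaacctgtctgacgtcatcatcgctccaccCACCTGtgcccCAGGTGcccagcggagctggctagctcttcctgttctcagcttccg
Crb3: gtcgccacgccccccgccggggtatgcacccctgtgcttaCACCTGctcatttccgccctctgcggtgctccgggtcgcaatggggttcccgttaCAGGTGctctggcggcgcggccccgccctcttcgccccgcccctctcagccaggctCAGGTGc

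Snai1, Cldn4 and Grhl3 hold 1 E-box each in these stretches, Rab25 2 and Crb3 3. Of the 12 junction and polarity genes with the motif, 6 were called higher, 4 lower and 2 were not called; of the 6 whose window lacks its letters, 3 were higher, 1 lower and 2 not called. A match is a description of these letters and says nothing of a bound factor.

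Grhl2, a Grainyhead-like factor that keeps Cdh1 and junction genes active, stood at 18.5 and 17.0 TPM in adult against 27.2 and 26.7 TPM in fetal libraries. The groups did not overlap on this scale. In counts scaled with TMM it was not called, at 64.0 and 64.6 CPM against 69.1 and 68.2 CPM (edgeR log2 fold change 0.09 with an SE of 0.05, Benjamini-Hochberg adjusted p = 0.141). It was called higher with library totals (log2 fold change 0.34, adjusted p = 0.000118) and on log2(TPM + 1) (0.58, limma adjusted p = 0.00383), settings in which the median of all genes moved up by 0.25 and 0.34.

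Ovol1, a zinc-finger repressor that restrains Zeb1 and other EMT factors, fell. It stood at 24.1 and 23.6 CPM in adult against 14.3 and 12.6 CPM in fetal libraries, with no overlap. The log2 fold change was -0.82 with an SE of 0.10 (edgeR with Benjamini-Hochberg, adjusted p = 1.50e-05), and -0.57 with library totals and -0.45 on log2(TPM + 1), with a call in each. Within a library, Grhl2 held 1.70 and 1.64 times the TPM of Ovol1 in adult and 3.45 and 3.72 times in fetal organoids.

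**Figure D5:**
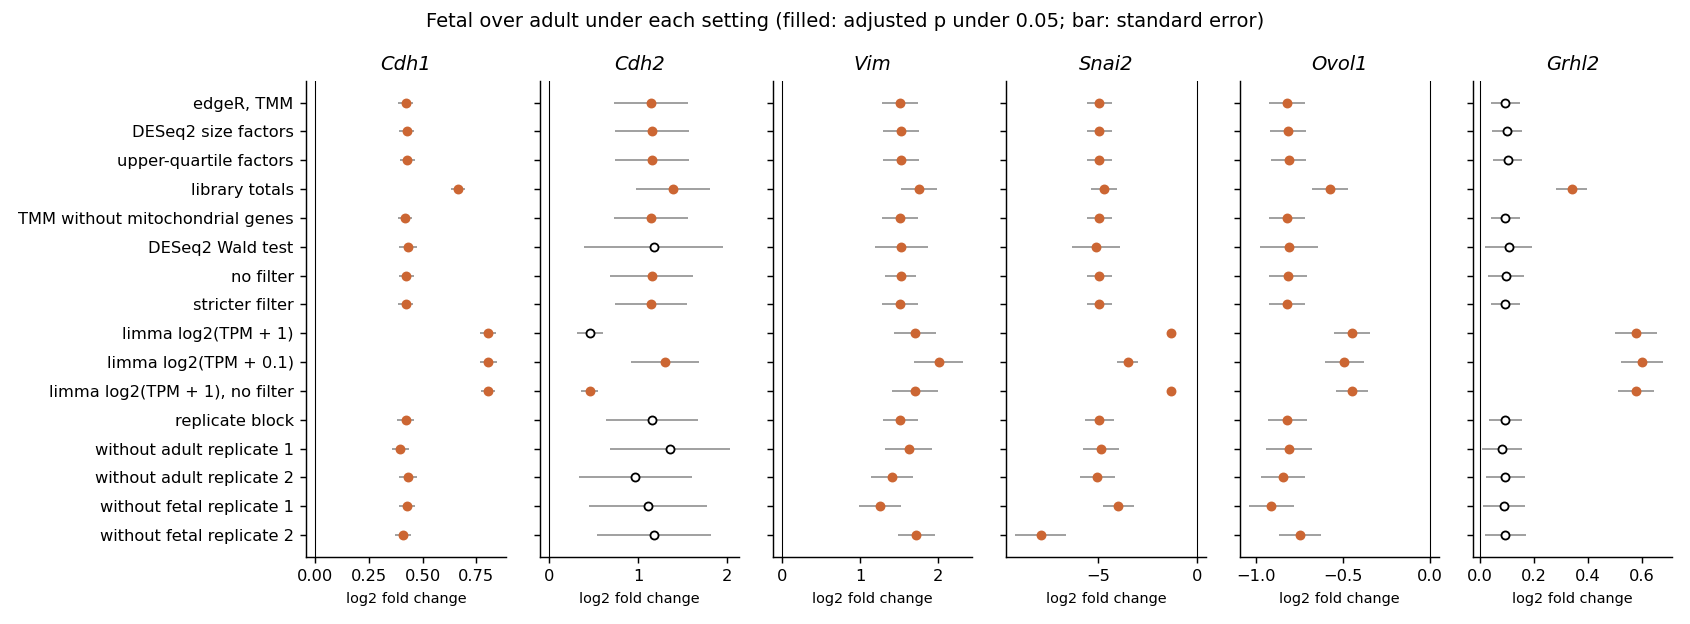
Log2 fold change, fetal over adult, of the 6 tested genes under the TMM-scaled edgeR test and 15 alternatives; bars are standard errors and filled points have an adjusted p under 0.05. Each gene keeps its side of 0 in every setting, the Cdh2 points are open whenever a library is left out, and Grhl2 is filled only with library totals and on TPM.

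The other Grainyhead-like genes were called higher. Grhl3, which acts in barrier formation, rose from 1.96 ± 0.915 to 29.3 ± 0.644 CPM (SD, n = 2), and Grhl1 from 4.54 to 12.3 CPM. Of 9 other epithelial regulators 8 were tested. With TMM 4 were called higher and 2 lower, against 7 and 1 with library totals and 7 and 0 on log2(TPM + 1). Since 66.5% of all genes tested were called with TMM, this count is not read as a result about the list. Esrp2, an epithelial splicing factor, rose by 0.34 on the log2 scale. Its relative Esrp1 had a log2 fold change of -0.11 with TMM, a call that was lost with DESeq2 and without adult replicate 1 or fetal replicate 1, but was called higher with library totals (0.14, edgeR adjusted p = 0.00434) and on log2(TPM + 1) (0.32, limma adjusted p = 0.00601). Klf5, a factor of proliferating crypt cells, fell by 0.44, a call that was lost on log2(TPM + 1) (-0.06). Ovol2, the close relative of Ovol1, was not called at 3.85 and 4.61 CPM against 5.23 and 5.32 CPM (edgeR, Benjamini-Hochberg adjusted p = 0.195).

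Epithelial junction and polarity genes, many of them known to fall in EMT, were more often higher than lower. All 25 were tested; 14 were called higher, 6 lower and 5 were not called (median log2 fold change 0.30, against 0.01 for all genes). The split was 19 to 3 under library totals and 20 to 1 on log2(TPM + 1). Over all genes tested, 33.9% were called higher and 32.7% lower with TMM. These shares were 48.8% and 20.9% under library totals and 45.2% and 12.0% on log2(TPM + 1). The split of all genes thus moved the same way, and its widening is no trait of this list. Cldn4, a sealing claudin, rose from 24.9 ± 0.454 to 204.8 ± 0.751 CPM (SD, n = 2), and Tjp1, the scaffold ZO-1, from 147.6 to 383 CPM. Rab25, an epithelial trafficking GTPase, and Crb3, an apical polarity protein, rose by 0.42 and 0.63 on the log2 scale. Prss8, a membrane-anchored protease, fell from 47.8 to 22.7 CPM. Tjp3, the scaffold ZO-3, and Epcam, the epithelial adhesion molecule, fell by 0.56 and 0.38, and both calls were lost on log2(TPM + 1) (-0.11 and -0.01).

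Besides the 10 genes, other EMT transcription factors were mostly absent or low. Of 11, 5 were tested, 2 of them higher and 1 lower, against 3 and 1 with library totals and 2 and 0 on log2(TPM + 1). With 66.5% of all genes tested called with TMM, these counts are not a result about the list. Foxc2, Prrx2 and Gsc had 0 counts in all 4 libraries. Snai3, the third SNAIL gene, had 7 counts in each adult library against 66 and 55 in the fetal ones, rising from 0.657 ± 0.063 to 4.39 ± 0.30 CPM (SD, n = 2), opposite to Snai2. Klf8 had 1 count in each adult library against 22 and 15 (ratio 14.4, exact 95% counting interval 3.72 to 123). Both Snai3 and Klf8 reached the filter in fetal libraries only. Tcf4, an E-box factor of the E-protein class, fell by 0.56 on the log2 scale with TMM but was not called on log2(TPM + 1) (limma with Benjamini-Hochberg, adjusted p = 0.976).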

How the data were processed

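The deposited tables give RSEM expected counts (estimated counts, not normalized) and TPM, which the authors' quantification corrects for gene length, per the file headers. STAR 2.7.3a and RSEM 1.3.3 and the builds GRCm39 and mm10 appear in the submitters' processing notes, without roles; annotation and strand setting are not given in the sources used here. GENCODE M21 named 52083 of 55416 identifiers; the unnamed, 0.471% to 1.11% of counts, stayed in totals and tests.

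Rounded counts of 2 against 2 libraries were tested by edgeR 4.0.16 (R 4.3.3; TMM, filterByExpr with a minimum count of 10, quasi-likelihood F-test), with Benjamini-Hochberg adjustment over all genes tested and a threshold of 0.05. SE is the log2 fold change over the root of F. Bounds use 3 counts per library, and count ratios have 95% Clopper-Pearson intervals; both cover counting error only. DESeq2 1.42.0 and limma 3.58.1 gave alternatives. The fits were tested on simulated data. Libraries of a group differed beyond sampling noise (chi-square per degree of freedom 3.30 adult, 2.81 fetal).

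The members and lists were chosen with earlier results of these data known. Named are the 10 genes, up to 3 called genes per direction from each of 6 pathway lists (by fold change, given a mean of 1 CPM or more in one group) and the 2 most abundant fetal genes of each of 7 cell type lists; others were named after their values were seen. Some list genes that this rule names are not reported here.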

Additional observations from a re-analysis of the deposited data

How the results depend on the processing

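Results were recomputed under 15 alternatives. Of 643 recomputed fold changes of 43 named and tested genes, 597 kept their direction and side of the threshold, and 32 genes did so throughout. The pathway list genes among the 43 were named because the TMM fit called them, largest fold change first. Several alternatives differ from that fit only in the scaling or the filter. The share kept is thus partly fixed by these choices and is no measure of robustness. The TPM fits change the test, the unit and the filter together, so their effects cannot be told apart. Genes called lower numbered 4662 with TMM, 2976 with library totals, 1914 and 1863 with limma on log2(TPM + 1) and log2(TPM + 0.1), and 1728 with limma on log2(TPM + 1) without a filter. Junction and polarity genes called lower numbered 6, against 3 with library totals and 1 in each of the 3 TPM fits. Catenins and partners called lower fell from 2 to 1 with library totals and in the TPM fits. Other epithelial regulators called higher were 4, and 7 with library totals and in both filtered TPM fits. Those called lower were 2, and 1 with library totals and with DESeq2, 1 to 2 with single libraries left out, and 0 in the 3 TPM fits (limma, 0 also at an unadjusted p under 0.05; DESeq2, 1). Other EMT factors called lower fell from 1 to 0 in the TPM fits (limma, 0 also unadjusted; DESeq2, 1). Without a filter 6 other cadherins were higher in place of 3, and 2 with limma on log2(TPM + 0.1) and on unfiltered log2(TPM + 1). Esrp1 turned from -0.11 to 0.14 with library totals, 0.32 and 0.33 in the filtered TPM fits and 0.32 unfiltered, and Nectin1 from -0.36 to 0.26, 0.29 and 0.26 in the TPM fits. The cause was not tested, beyond the shift of the median of all genes given above.

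Same-numbered libraries did not deviate together (correlation -0.08 over 9055 genes). This value cannot settle what the replicate number stands for, and the labels do not explain the replicate number. With it as a replicate block, 4765 genes were higher and 4584 lower, and of the 10 genes 2 were higher and 2 lower, since Cdh2 lost its call (edgeR, Benjamini-Hochberg adjusted p = 0.0543; range over all alternatives 0.00921 to 0.234). Depth limits Zeb1, Snai1 and Twist1, whose counts lie at or under the floor.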
